A study of Mus musculus with 12 samples.

Results

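The 10 genes Fos, Fosb, Jun, Junb, Atf3, Egr1, Nr4a1, Ier2, Dusp1 and Zfp36 are immediate early and stress response genes, and they were taken by symbol from the count table of 18467 genes. All 10 had a row and all 10 passed the filter on low counts that left 12882 genes. RNA-seq of 12 libraries of sorted marrow macrophages followed them, with 4 groups of 3 libraries. General macrophages were sorted as CD11b+F4/80+ cells and niche macrophages as VCAM1+CD163+CCR3+ cells. The metastatic groups came from female Albino B6 mice that received E0771 cells, a mouse breast cancer line, through the caudal artery at 8 weeks of age. The normal groups came from healthy control mice, whose age and sex the labels do not give. The libraries of a group came from different mice. No group carried an engineered allele according to the labels.

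Immediate early genes are transcribed within minutes of a signal, without new protein synthesis, because the factors that switch them on (CREB, and serum response factor with its ternary complex partners) already sit in the cell and are activated by kinases. Their products are transcription factors, such as the Fos and Jun proteins that pair to form AP-1, and feedback proteins that end the response. In macrophages they respond to growth factors, microbial products and cytokines, and in sorted cells they are also known to respond to handling of the tissue, which was not measured here.

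The regions before the transcription start are shown for 5 members, since CREB and serum response factor act through short elements there. Of the 10 members, 8 had a 300-base window in the RefSeq table for GRCm38.p6, from 250 bases before to 50 bases after the start. The bases from 150 to 48 before the start are printed 5′ to 3′ on the gene's strand for Fos, Fosb, Jun, Dusp1 and Zfp36. Levels of Fos, Fosb, Jun and Dusp1 were higher in every niche library of metastatic marrow than in any of normal marrow. The groups of Zfp36 did not overlap between populations under the main scaling (TMM). The windows are chr12:85473740-85473842 on the plus strand for Fos, and on the minus strand chr7:19310093-19310195 for Fosb, chr4:95052270-95052372 for Jun, chr17:26508520-26508622 for Dusp1 and chr7:28379276-28379378 for Zfp36. They lie upstream of the RefSeq start, and those of Dusp1 and Zfp36 fall inside the longer gene spans of GENCODE M21. Capitals mark TGACG on either strand (the core of the cAMP response element), the full element TGACGTCA, and the CArG box of serum response factor.
Fos: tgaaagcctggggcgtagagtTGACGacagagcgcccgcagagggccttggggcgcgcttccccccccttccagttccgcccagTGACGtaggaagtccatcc
Fosb: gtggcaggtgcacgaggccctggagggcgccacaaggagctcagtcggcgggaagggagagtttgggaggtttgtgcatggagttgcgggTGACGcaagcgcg
Jun: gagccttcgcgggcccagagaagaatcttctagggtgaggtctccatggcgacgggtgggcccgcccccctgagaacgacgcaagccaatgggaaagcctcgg
Dusp1: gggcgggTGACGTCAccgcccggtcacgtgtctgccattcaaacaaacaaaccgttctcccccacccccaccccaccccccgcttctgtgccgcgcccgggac
Zfp36: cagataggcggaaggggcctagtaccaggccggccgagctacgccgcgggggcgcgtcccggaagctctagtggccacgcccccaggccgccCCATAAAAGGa

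TGACG, searched on both strands, was present in the 300-base windows of 6 of the 8 members (Fos, Fosb, Junb, Atf3, Nr4a1 and Dusp1) and in 20.8% of all 32851 windows of the same length. The full element TGACGTCA, which contains TGACG on both strands, was in that of Dusp1 alone among the 8 and in 1.79% of all windows. In Fos, TGACG began 129 and 66 bases before the start, and in Fosb it began 60 bases before it. The CArG box was found in the window of Zfp36, 58 to 49 bases before the start, and in 1.63% of all windows. GCGNGGGCG, the Egr1 motif, was in the windows of Fosb, Zfp36 and Nr4a1 and in 5.55% of all. TATAAA was in those of Fos and Junb and in 13.6% of all, and TGACTCA, the AP-1 motif, was in none of the 8 and in 5.2% of all. A match says only that these letters are there, and a missing match covers only the 300 bases searched. Elements farther upstream were not searched, and Egr1 and Ier2 had no window.

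**Figure D1:**
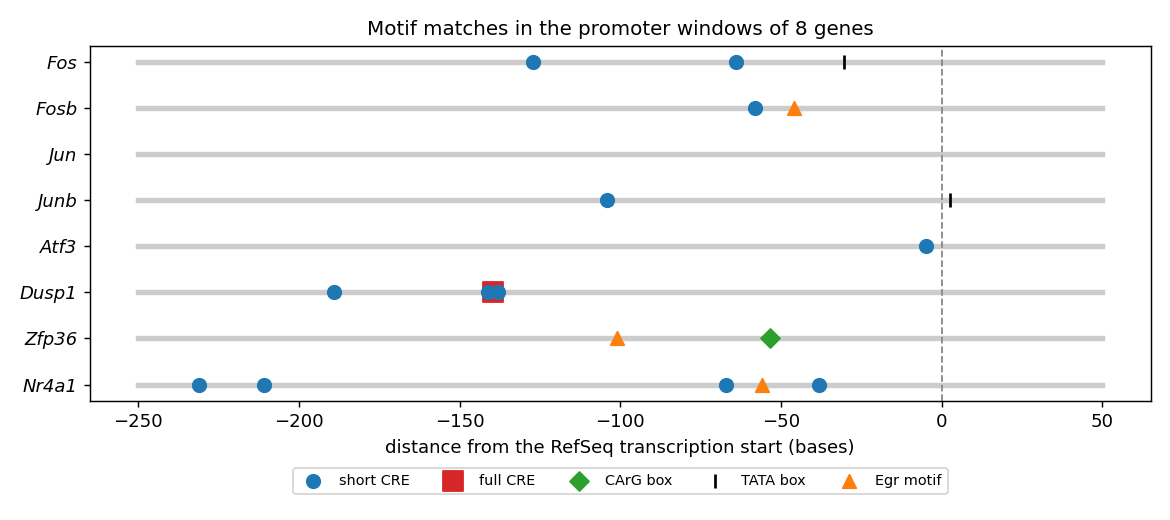
Matches to 5 motifs in the windows of 8 members (rows), by distance in bases from the RefSeq transcription start (horizontal axis); short CRE stands for TGACG, full CRE for TGACGTCA, TATA box for TATAAA and Egr motif for GCGNGGGCG. TGACG lies in 6 of the 8 windows, the full element only in that of Dusp1 and the CArG box only in that of Zfp36, while the window of Jun holds none of them.

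Library totals lay between 13687957 and 30332442 counts, and between 12322383 and 27406299 after TMM scaling, and 3 counts of the scaled sizes corresponded to 0.109 to 0.243 CPM (CPM stands for scaled counts relative to the library total and is the unit of all levels below). The 10 members together took 0.0858% to 0.0924% of the counts in the 3 niche libraries from normal marrow, less than in any other library (0.107% to 0.161% in general macrophages from normal marrow, 0.120% to 0.246% in those from metastatic marrow, 0.156% to 0.228% in niche macrophages from metastatic marrow). The markers did not bear out the labels evenly. Mertk, a receptor for dying cells on macrophages, was at 88.0 to 328 CPM in niche libraries but at 0.511 to 5.20 CPM in general ones, and Timd4 was below the level of 3 counts in every general library. The summed level of 12 macrophage markers was 102 to 289 CPM in general and 1294 to 3372 CPM in niche macrophages. The summed level of 15 neutrophil markers was 17837 to 29346 and 12566 to 15613 CPM. The part of other cells in each sort was not tested. In such bulk samples, fewer cells of a type and less RNA per cell cannot be told apart.

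Compared per kilobase of merged exons and averaged over the 12 libraries, Fos had the highest level (157 CPM per kilobase), followed by Zfp36 (98.4), Jun (59.4), Dusp1 (41.9), Ier2 (38.0), Junb (36.4), Fosb (31.8), Nr4a1 (12.5), Egr1 (9.28) and Atf3 (7.51). The order depended on the group: in niche macrophages from metastatic marrow the mean of Fosb was 72.2 CPM per kilobase, next to Jun (75.6) and Zfp36 (68.2) and within their spread (SD 42.5, 21.1 and 22.7, n = 3 each), whereas in general macrophages from normal marrow it was 13.3. Across libraries Zfp36 varied least in CPM, by 2.86-fold between the lowest and the highest, and Egr1 and Atf3 varied most. Egr1 ran from 0.325 CPM (4 counts) to 96.1 CPM, and Atf3 from 0.101 CPM (2 counts, below the level of 3 counts) to 33.6 CPM. The fitted biological coefficient of variation was 0.314 for Zfp36, 0.335 for Fos and 0.400 for Fosb, and 1.33 for Atf3, against a median of 1.24 over all tested genes. All members but Atf3 thus had a smaller fitted spread between libraries than this median.

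**Figure D2:**
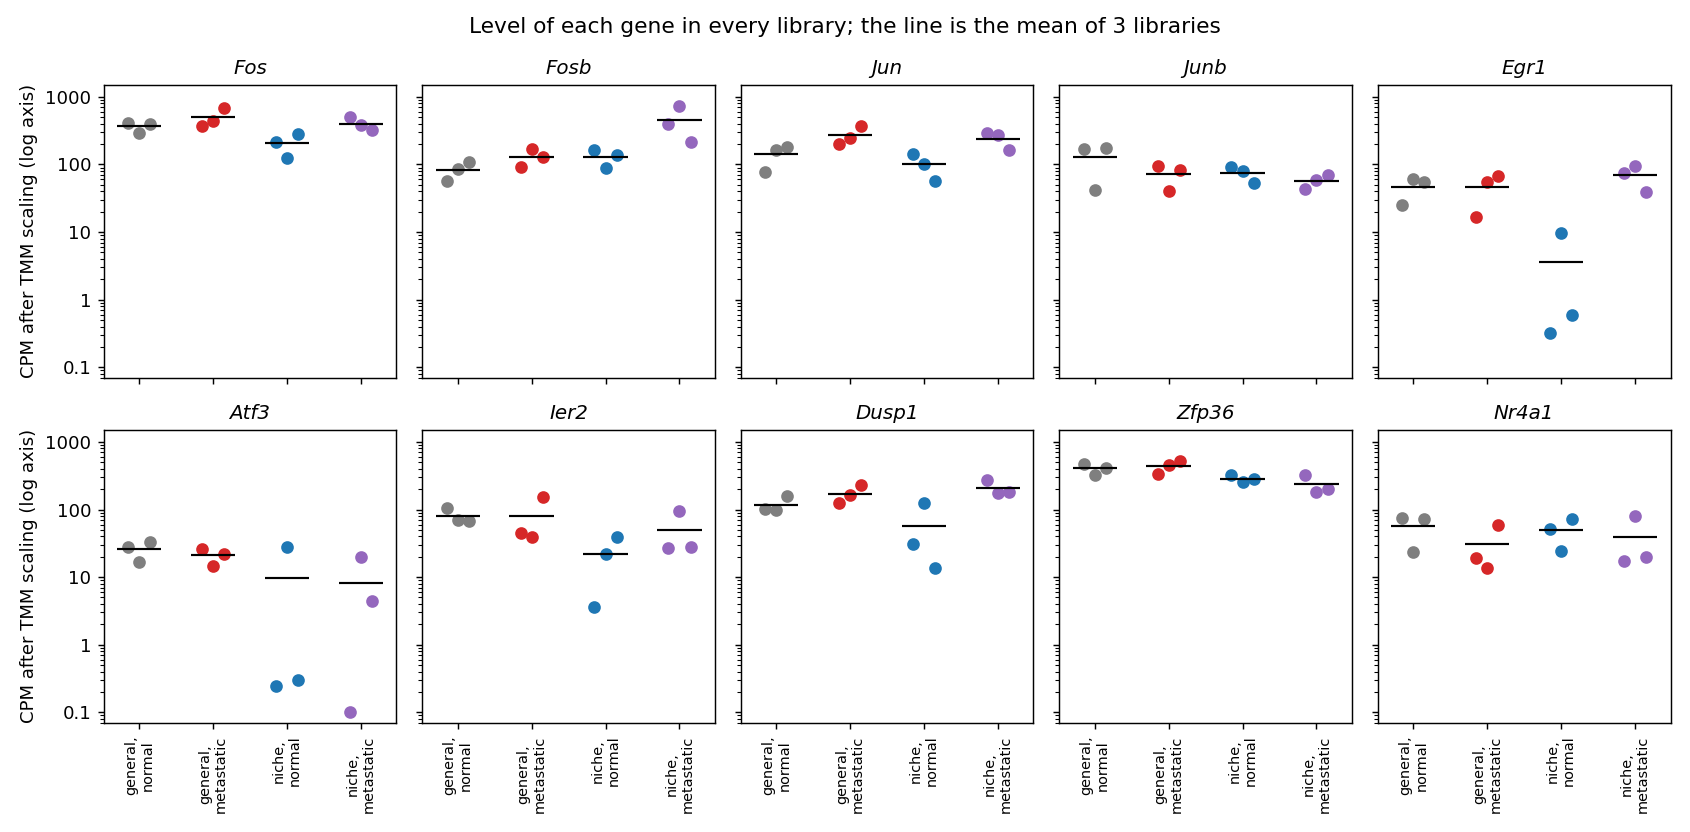
Level of each of the 10 members in every library, in CPM on a log axis, with 3 points for each group and a line at the group mean. Egr1 lies between 0.325 and 9.74 CPM in the normal niche group and at 16.6 CPM or above elsewhere, while Fosb is at 212 CPM or above in niche macrophages from metastatic marrow and at 167 CPM or below in the other groups.

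Among the Fos proteins, which bind DNA as partners of Jun proteins, Fosb separated the populations in metastatic marrow. Fosb was at 92.0, 167 and 127 CPM in general macrophages 1 to 3 from metastatic marrow and at 403, 737 and 212 CPM in niche macrophages 1 to 3. The groups did not overlap, and library 2 of the niche group was the highest. The difference was 1.81 ± 0.42 on the log2 scale (SE, 3.50-fold), and it was the single call among the 10 members in that comparison (edgeR adjusted p = 0.0419; 0.831% of all tested genes were called). The call rested on 3 libraries a group: it was lost when any one of 5 of the 6 libraries was left out (edgeR adjusted p from 0.0973 to 0.525, the highest without niche library 2, where the difference was 1.26), and it held without niche library 3 (edgeR adjusted p = 0.0114). Limma-voom (adjusted p = 0.0794) and a fit of these 6 libraries alone by edgeR (adjusted p = 0.0879) also lost it. Markers of other cells differed between the same libraries: 13 B and plasma cell markers summed to 97.3 to 128 CPM in general macrophages and to 1132, 3925 and 1821.5 CPM in niche libraries 1 to 3. Library 2 was the highest for Fosb too, whereas libraries 1 and 3 stood in the opposite order. The 15 erythroid markers summed to 161 to 317 CPM and to 2239, 1642 and 1008 CPM. The 9 monocyte markers summed to 18529 to 20304 and 8924 to 11409 CPM. Their part in the Fosb difference was not tested.

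In normal marrow, Fosb was at 57.1, 84.8 and 107 CPM in general macrophages and at 165, 88.4 and 139.5 CPM in niche macrophages A to C. These groups overlapped, and the difference of 0.66 ± 0.40 (log2, SE) did not pass (edgeR adjusted p = 0.386). Fosb was the only one of the 10 members with a higher mean in niche macrophages of normal marrow. From normal to metastatic marrow its log2 difference was 1.78 ± 0.41 (SE, 3.44-fold) in niche macrophages, with no overlap and no call (edgeR adjusted p = 0.160), and 0.64 ± 0.40 in general macrophages (edgeR adjusted p = 1). By mean level the order was niche metastatic, niche normal, general metastatic and general normal, and only the first of these groups was apart from its neighbour.

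Fos, the first described partner of Jun in AP-1, was at 411, 296 and 398 CPM in general macrophages from normal marrow and at 372, 443 and 677 CPM in those from metastatic marrow. In niche macrophages it was at 214, 123 and 282 CPM in normal and at 508, 378 and 323 CPM in metastatic marrow. The 3 niche libraries from normal marrow were the lowest of all 12, and the other 3 groups overlapped with each other. The log2 difference between niche and general macrophages of normal marrow was -0.84 ± 0.32 (SE; edgeR adjusted p = 0.202), and that between metastatic and normal marrow in niche macrophages was 0.97 ± 0.32 (SE; edgeR adjusted p = 0.381). Neither passed.

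The balance of the 2 Fos genes was therefore also read within each library, where scaling has no part. Fosb counts per Fos count were 0.139, 0.287 and 0.269 in general macrophages from normal marrow and 0.247, 0.378 and 0.188 in those from metastatic marrow. In niche macrophages they were 0.771, 0.721 and 0.495 in normal and 0.794, 1.95 and 0.658 in metastatic marrow. Merged exons are 6243 bases long for Fosb and 2352 for Fos, so these values are not ratios of levels per kilobase. Every niche library lay above every general library in both marrow states. The log2 ratio was 1.76 higher in niche macrophages, with an exact two-sided permutation p of 0.005 over relabellings of the population within each marrow state, the smallest that the 400 relabellings can give. This ratio was singled out after its values had been seen. Over the 45 ratios that the 10 members can form, which share members, its Benjamini-Hochberg adjusted p was 0.045 by the exact test, and 5 ratios reached that value. They were those of Fosb to Fos, Jun, Ier2 and Zfp36 and that of Ier2 to Nr4a1. All 5 had the smallest p that the test can give, and the adjusted value of 0.045 rests on this tie. The ratios with Fosb share its counts, so they are not independent of each other. With both marrow states pooled, the 6 niche libraries were apart from the 6 general libraries in 2 of the 45, Fosb to Fos and Fosb to Jun. The ratio of Fosb to Fos gave a difference between 1.52 and 1.91 when each library was left out in turn and when unrounded counts were used.

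**Figure D3:**
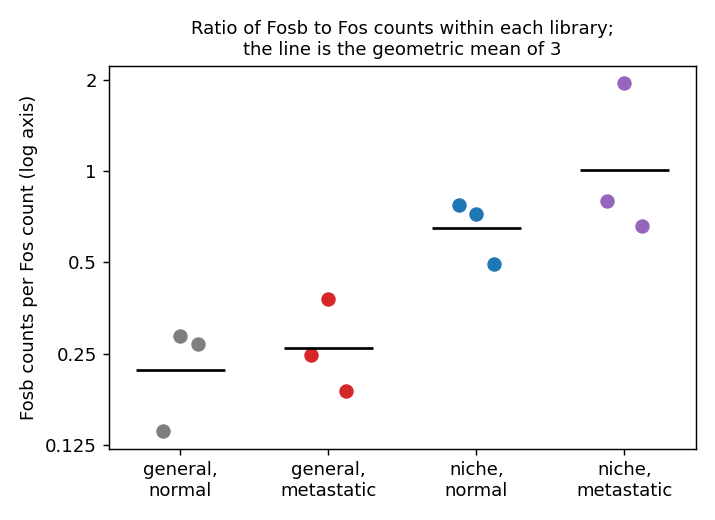
Fosb counts divided by Fos counts in each library (vertical axis, log scale) for the 4 groups, with a line at the geometric mean of 3 libraries. The 6 general libraries lie between 0.139 and 0.378 and the 6 niche libraries between 0.495 and 1.95. Counts are not divided by gene length.

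Jun, the main partner of the Fos proteins, was at 78.6, 161 and 184 CPM in general macrophages from normal marrow and at 202, 249 and 369 CPM in those from metastatic marrow. Niche macrophages held 145, 103 and 56.7 CPM in normal and 291, 268 and 165 CPM in metastatic marrow. In both populations every metastatic library was above every normal library. The log2 differences were 0.95 ± 0.40 in general and 1.25 ± 0.40 in niche macrophages (SE), and neither passed over all genes (edgeR adjusted p = 0.944 and 0.381). In general macrophages Jun was the single member without overlap, where 12.9% of all tested genes had none in either direction, so this count is near the background. Junb, a Jun family member that often acts against Jun, was at 170.0, 42.2 and 178 CPM in general macrophages from normal marrow and at 95.8, 39.8 and 82.7 CPM in those from metastatic marrow. Its niche libraries were at 92.7, 79.4 and 53.6 CPM in normal and at 43.8, 58.3 and 70.3 CPM in metastatic marrow. All 4 groups of Junb overlapped with each other, and its fitted differences lay between -0.84 and -0.34 on the log2 scale without a call. The gene span of Jun overlaps the antisense gene Junos, and that of Junb overlaps Prdx2 on the other strand; whether the counting used strand is not given in the sources used here, so such reads cannot be told apart.

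Atf3, a stress-induced factor of the ATF and CREB family, split the niche libraries within each group. It was at 27.7, 16.6 and 33.6 CPM in general macrophages from normal marrow and at 26.3, 14.6 and 22.4 CPM in those from metastatic marrow. In niche macrophages from normal marrow it was at 28.1 CPM in library B (566 counts) and at 0.243 and 0.301 CPM in libraries A and C (3 and 6 counts). In niche macrophages from metastatic marrow it was at 19.8 CPM in library 2 (452 counts), 4.47 CPM in library 3 (121 counts) and 0.101 CPM in library 1 (2 counts). The 6 general libraries kept within 14.6 to 33.6 CPM, whereas the niche libraries ranged from the level of general macrophages down to 2 counts. No comparison of Atf3 passed, and its standard errors of 1.73 to 1.77 on the log2 scale leave differences of several-fold undetectable at this spread.

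Egr1, a zinc finger factor that takes part in monocyte and macrophage differentiation, had its lowest levels in the niche macrophages of normal marrow, with no difference called by edgeR. It was at 0.325, 9.74 and 0.603 CPM there (4, 196 and 12 counts in libraries A, B and C) and at 75.3, 96.1 and 39.5 CPM in niche macrophages from metastatic marrow. In general macrophages it was at 25.1, 60.0 and 54.3 CPM in normal and at 16.6, 54.8 and 67.1 CPM in metastatic marrow. The 3 niche libraries from normal marrow were the lowest of the 12, and the other 3 groups overlapped. The log2 difference between niche and general macrophages of normal marrow was -3.70 ± 1.12 (SE; edgeR adjusted p = 0.0977), and that between metastatic and normal marrow in niche macrophages was 4.30 ± 1.15 (SE; edgeR adjusted p = 0.249). The change with metastasis was larger in niche than in general macrophages by 4.31 ± 1.48 on the log2 scale (SE), which did not pass either (edgeR adjusted p = 0.460). Library B decides these calls. Without it, the 3 differences were -6.60, 7.20 and 7.20, and each passed (edgeR adjusted p = 0.00210, 0.00856 and 0.0340, with 2.83%, 0.465% and 0.113% of all genes called). DESeq2 called all 3 with every library kept (adjusted p = 0.00203, 0.000463 and 0.0418).

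Nr4a1, an orphan nuclear receptor needed for patrolling monocytes, was at 75.2, 23.7 and 72.1 CPM in general macrophages from normal marrow and at 19.4, 13.6 and 58.7 CPM in those from metastatic marrow. Niche libraries of Nr4a1 were at 51.9, 24.4 and 71.5 CPM in normal and at 17.4, 78.9 and 20.0 CPM in metastatic marrow. The groups overlapped in every comparison, and each group held at least one library above 50 CPM and one at or below 24.4 CPM. Ier2, an early nuclear protein, was at 105, 70.3 and 67.9 CPM in general macrophages from normal marrow and at 45.7, 39.9 and 151 CPM in those from metastatic marrow. The niche libraries of Ier2 were at 3.65, 22.3 and 39.6 CPM in normal and at 26.8, 93.9 and 28.2 CPM in metastatic marrow. In normal marrow the niche libraries of Ier2 lay below the general ones, by -1.89 ± 0.81 on the log2 scale (SE; edgeR adjusted p = 0.238), and in metastatic marrow the populations overlapped.

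The feedback genes were Dusp1, a phosphatase that inactivates MAP kinases, and Zfp36, which encodes tristetraprolin, a protein that speeds the decay of cytokine and other early mRNAs. Dusp1 was at 102, 97.0 and 156 CPM in general macrophages from normal marrow and at 125, 162 and 228 CPM in those from metastatic marrow. The niche libraries were at 31.2, 125 and 13.6 CPM in normal and at 272, 173 and 182 CPM in metastatic marrow. Library B of the normal niche group reached the level of general macrophages and libraries A and C did not. Between metastatic and normal marrow the niche libraries of Dusp1 were apart, with a log2 difference of 1.89 ± 0.57 (SE; edgeR adjusted p = 0.334). Without library B this difference was 3.23 and passed (edgeR adjusted p = 0.00856), as did that between niche and general macrophages of normal marrow, at -2.41 (edgeR adjusted p = 0.00839) against -1.07 with it (edgeR adjusted p = 0.297). The span of Dusp1 overlaps Ergic1 on the other strand.

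Zfp36 was the steadiest member. It was at 476, 325 and 417 CPM in general macrophages from normal marrow and at 334, 458 and 519 CPM in those from metastatic marrow. In niche macrophages it was at 323, 258 and 278 CPM in normal and at 327, 182 and 201 CPM in metastatic marrow. Niche libraries lay below general libraries in both marrow states, by a narrow margin in each (323 against 325 CPM, and 327 against 334 CPM). The log2 differences were -0.51 ± 0.28 and -0.89 ± 0.28 (SE), and neither passed (edgeR adjusted p = 0.327 and 0.289). Under scaling by median ratios the groups overlapped in both marrow states, and under library totals those of metastatic marrow did.

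Read as a group in normal marrow, 9 of the 10 members had a lower fitted level in niche than in general macrophages, with a median log2 difference of -0.81 against 0.19 over all tested genes. The median over all genes was 0.0038 without niche library B, 0 without niche library C and -0.20 by limma-voom, where that of the members was -0.70, -0.59 and -0.81. None passed by edgeR, where 2.47% of all genes did, and 3 of 10 had an unadjusted p under 0.05 against 19.0% of all genes. DESeq2 called Egr1, and 14.2% of all genes. For 4 members (Fos, Egr1, Ier2 and Zfp36) every niche library was below every general library, which held for 8.78% of all genes in that direction. The count was 3 under RLE scaling, where Zfp36 overlapped (9.04% of all genes), and 3 with library totals, where Fos overlapped (8.55%). The markers of other cells differed as well: 9 monocyte markers summed to 5579 to 6701 CPM in niche and 13945 to 14733.5 CPM in general macrophages, 15 neutrophil markers to 12566 to 15613 and 24782 to 26229 CPM, and 13 B and plasma cell markers to 1298 to 2374 and 169 to 265 CPM. The 15 erythroid markers summed to 1205 to 1523 CPM in niche and 104 to 189 CPM in general macrophages, and the 12 T and NK cell markers to 224 to 543 and 126 to 185 CPM. Their part in the members' levels was not tested.

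In metastatic marrow the members did not move together between populations. The median log2 difference was -0.24 against 0.04 over all genes, with 4 members above zero and 6 below. The sign of this median turned without general library 3 (0.15), and the sign of Jun turned under scaling by library totals (from -0.18 to 0.01). Fosb was higher and Zfp36 lower without overlap, 2 of 10 against 17.2% of all genes in either direction, which is near the background. DESeq2 called Fosb alone of the 10, and 3.73% of all genes.

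Within niche macrophages, metastatic against normal marrow, the 10 members had a median log2 difference of 1.07 against -0.17 over all genes, and of 0.66 without niche library 2 of metastatic marrow. By limma-voom these medians were 1.13 and 0.17. For 5 of them (Fos, Fosb, Jun, Egr1 and Dusp1) every metastatic library was above every normal library, which held for 5.63% of all tested genes in that direction, and none of the other 5 was apart. None passed by edgeR, where 0.00776% of all genes did, and the same 5 had an unadjusted p under 0.05 against 12.7% of all genes. DESeq2 called Fosb, Egr1 and Dusp1 (adjusted p = 0.00335, 0.000463 and 0.0228), and 7.41% of all genes. Between 5 and 6 members were apart in this way when each library was left out, and between 8.56% and 10.8% of all genes in those fits. Markers moved in the same comparison: the 9 monocyte markers summed to 5579 to 6701 CPM in normal and 8924 to 11409 CPM in metastatic marrow, of which Chil3 alone made 3173 to 4678 and 7288 to 9606 CPM. The other 8 summed to 1837 to 2406 CPM in normal and 1636 to 1811 CPM in metastatic marrow, so the higher sum was that of Chil3. Of the 9, 5 had a higher and 4 a lower fitted level, and of 3 with an unadjusted p under 0.05, 1 was higher and 2 were lower. The 12 macrophage markers summed to 2744 to 3372 and 1294 to 2276 CPM, and the genes of the 5 sorting antigens to 4124 to 4781 and 1860 to 3318 CPM. The sums of neutrophil markers overlapped, at 12566 to 15613 and 13545 to 14389 CPM, while 4 of the 15 were lower without overlap, against 7.11% of all genes. The sums of T and NK cell markers also overlapped (224 to 543 and 165 to 363 CPM), with 9 of 10 tested lower and 4 of them without overlap. Those of B and plasma cell markers overlapped too (1298 to 2374 and 1132 to 3925 CPM). Of 10 tested, 7 were lower and 3 higher, and 4 lower and 1 higher did not overlap (50% against 12.7% of all genes). The part of these cells' content in the result was not tested.

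In general macrophages the median of the members between metastatic and normal marrow was 0.05 against -0.01 over all genes, with 5 above zero and 5 below. This median ran from -0.21 (without metastatic library 3) to 0.33 (without metastatic library 1) when single libraries were left out. None passed by edgeR, where 0.0155% of all genes did, nor by DESeq2, which called 1.09% of all genes, and 1 of 10 had an unadjusted p under 0.05 against 5.12%. Whether metastasis acted differently in the 2 populations was tested by the difference of both changes. It was above zero for 9 of the 10 members, all but Zfp36, with a median of 0.54 against -0.13 over all genes. Leaving out single libraries gave medians from 0.34 (without general metastatic library 2) to 1.10 (without general metastatic library 3). None passed by edgeR (0% of all genes did), and Egr1 alone had an unadjusted p under 0.05, against 7.89% of all genes. DESeq2 called Egr1, and 3.18% of all genes. The comparisons of niche macrophages share the same 3 normal libraries, so a low value there enters both.

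**Figure D4:**
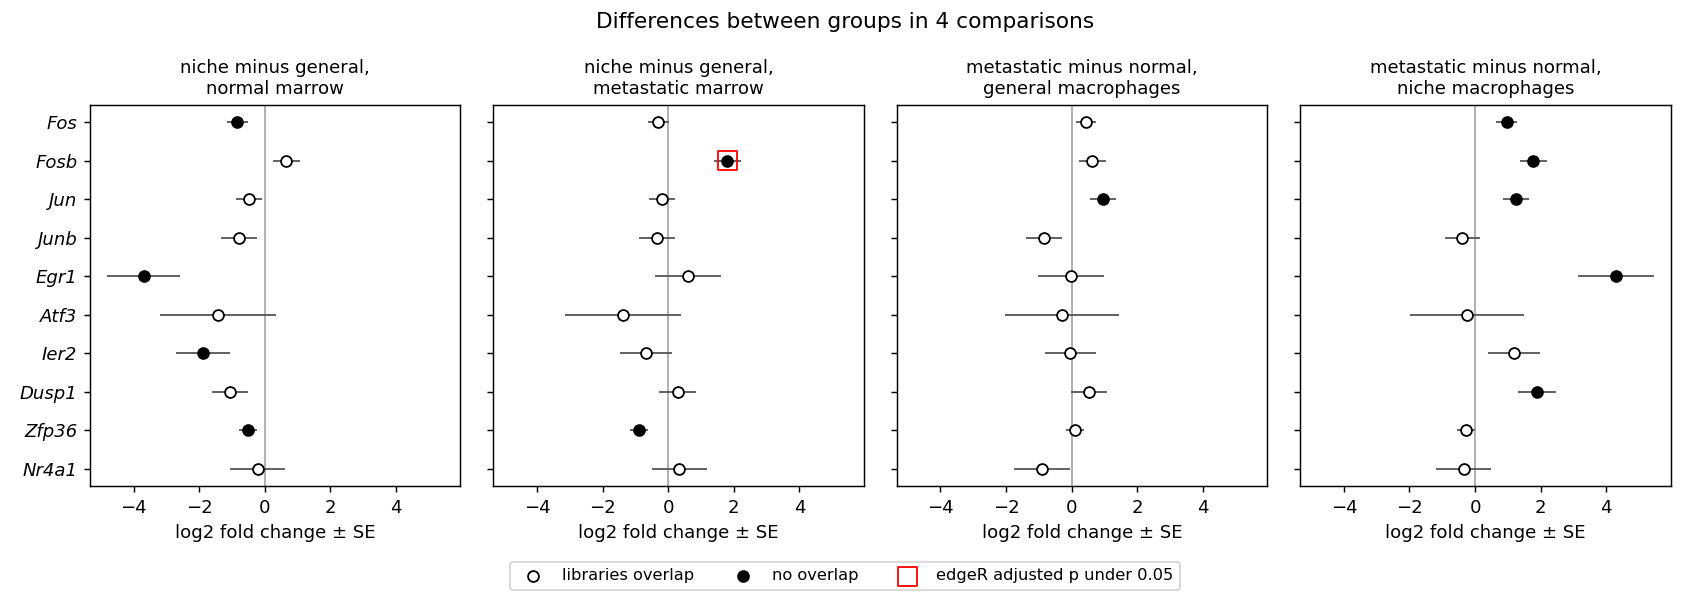
Log2 fold change with its standard error (horizontal axis) of the 10 members in 4 comparisons; filled points mark groups of 3 libraries that do not overlap, and the red square marks an edgeR adjusted p under 0.05. In normal marrow 9 of 10 niche values lie below zero, the square marks Fosb in metastatic marrow, and 5 filled points lie to the right in niche macrophages.

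The members did not share one profile. Over the 12 libraries, which share the scaling factor of each library, the correlation of log2 CPM of a member with the mean standardised profile of the other 9 was 0.74 for Egr1, 0.67 for both Fos and Ier2, 0.64 for Dusp1, 0.53 for Jun and 0.47 for Atf3. It was 0.23 for Zfp36, 0.10 for Junb, 0.02 for Nr4a1 and -0.06 for Fosb. Among 8135 tested genes outside the list whose mean reached 10 CPM, the mean profile of the 10 members was most like those of Ampd3 (r = 0.90), Upf1 (0.90), Stx4a (0.90), Gm8203 (0.89) and Tpm3 (0.88). Upf1, a helicase of nonsense-mediated mRNA decay, was at 4.03 ± 6.37 CPM in niche normal libraries and at 27.0 ± 12.6, 40.2 ± 19.5 and 28.6 ± 12.2 CPM in general normal, general metastatic and niche metastatic libraries (SD, n = 3 each).

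Other genes of the same response were read from lists of related genes. Of 25 tested AP-1, Egr, Nr4a and other early transcription regulators outside the 10, 2 passed in normal marrow, both lower in niche macrophages (8% against 2.47% of all genes). Of the 25, 6 had an unadjusted p under 0.05 there, 2 higher and 4 lower (24% against 19.0% of all genes). None passed in the other comparisons. There, an unadjusted p under 0.05 was held by 2 between populations of metastatic marrow (8% against 8.6% of all genes), 3 with metastasis in general macrophages (12% against 5.12%), 5 in niche macrophages (20% against 12.7%) and 2 for the difference of both changes (8% against 7.89%). Fosl2, a further Fos family gene, was at 619, 567 and 582 CPM in general and at 135, 315 and 114 CPM in niche macrophages of normal marrow, a log2 difference of -1.65 ± 0.37 (SE; edgeR adjusted p = 0.0187). Fosb in the same libraries had a fitted difference above zero (0.66). Nfil3, a basic leucine zipper factor, was at 44.2, 17.8 and 24.0 CPM in general macrophages and at 0.325, 0.0994 and 0.151 CPM in niche macrophages of normal marrow, near the level of 3 counts (edgeR adjusted p = 0.0317). The call of Fosl2 was lost without any one general library or niche library A or C (edgeR adjusted p from 0.0535 to 0.0706), and that of Nfil3 without any one library but niche library A (edgeR adjusted p from 0.0548 to 0.117). The median log2 difference of this list was -0.50 in normal marrow.

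Of 19 tested genes of negative feedback on signalling and mRNA decay, 2 passed in normal and 1 in metastatic marrow, all higher in niche macrophages (10.5% and 5.26%, against 2.47% and 0.831% of all genes). The list as a whole had no single direction in normal marrow: 8 of the 19 had a higher and 11 a lower fitted level in niche macrophages, with a median log2 difference of -0.25, and an unadjusted p under 0.05 was held by 3 higher and 3 lower (31.6% against 19.0% of all genes). In metastatic marrow 12 were higher and 7 lower, with a median of 0.27, and 4 higher and 1 lower had an unadjusted p under 0.05 (26.3% against 8.6%). None passed with metastasis in either population, where 1 (general, 5.26% against 5.12%) and 3 (niche, 15.8% against 12.7%) had an unadjusted p under 0.05, near the background. Zfp36l1, the close relative of Zfp36 with the same type of RNA-binding zinc fingers, was at 36.7, 16.6 and 4.50 CPM in general and at 198, 193 and 128 CPM in niche macrophages of normal marrow, a log2 difference of 3.17 ± 0.61 (SE; edgeR adjusted p = 0.00599). Its direction was opposite to the fitted difference of Zfp36. Rgs1, which shuts off G protein signalling from chemokine receptors, had log2 differences of 2.53 ± 0.55 in normal and 2.76 ± 0.55 in metastatic marrow (SE; edgeR adjusted p = 0.0151 and 0.0157). Its levels in metastatic marrow were 28.7, 37.4 and 40.9 CPM in general and 317, 143 and 262 CPM in niche macrophages. The call of Rgs1 in normal marrow was lost without general library 1 or 3 or niche library A (edgeR adjusted p = 0.0932, 0.0639 and 0.136; log2 difference 1.37 without A), and that in metastatic marrow without any one library but niche library 2 (edgeR adjusted p from 0.0571 to 0.103). With only the libraries compared, none of Fosl2, Nfil3, Zfp36l1 and Rgs1 passed in normal marrow (edgeR adjusted p from 0.0519 to 0.130), and limma-voom lost Nfil3 and Rgs1 there (adjusted p = 0.116 and 0.303).

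None of 24 tested kinases and factors upstream of immediate early genes passed by edgeR in any comparison; the smallest adjusted p in normal marrow belonged to Atf2 (log2 difference 1.32 ± 0.52, SE; edgeR adjusted p = 0.221). In normal marrow 2 of the 24 had an unadjusted p under 0.05 (8.33% against 19.0% of all genes), and none did in the other comparisons. The 17 tested heat shock genes held no call either, though 16 of them were above zero in niche against general macrophages of normal marrow, with a median log2 difference of 0.84 against 0.19 over all genes, and 4 had an unadjusted p under 0.05 (23.5% against 19.0% of all genes, near the background). Hsp90ab1, the constitutive HSP90, was at 116, 275 and 149 CPM in general and at 259, 488 and 417 CPM in niche macrophages there (log2 difference 1.11 ± 0.34, SE; edgeR adjusted p = 0.0987). The inducible Hspa1a was at 0.206 CPM or below in general macrophages of normal marrow and at 0.243, 24.0 and 29.9 CPM in niche macrophages A to C (edgeR adjusted p = 0.161). Its order of libraries differed from that of Egr1 and Dusp1, which were higher in library B than in A and C, with Egr1 in B still below every library of the other groups.

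Among 14 tested genes of the integrated stress response and DNA damage, none passed by edgeR in any comparison, and counts at an unadjusted p under 0.05 were small. They were 3 between populations of normal marrow (21.4% against 19.0% of all genes), 2 in metastatic marrow (14.3% against 8.6%), 1 with metastasis in general macrophages (7.14% against 5.12%) and 0 in niche macrophages (against 12.7%). Herpud1, a gene of the endoplasmic reticulum stress response, had a log2 difference of 2.30 ± 0.68 between niche and general macrophages of normal marrow (SE; edgeR adjusted p = 0.0893). Ppp1r15a, whose product reverses the translational block, was at 0.243, 16.6 and 0.10 CPM in libraries A to C of the normal niche group, again with library B the highest. Of 16 tested early cytokine and inflammatory genes, Thbs1 was the single call in each of the 4 comparisons (6.25%, against 2.47% and 0.831% of all genes between populations of normal and metastatic marrow and 0.0155% and 0.00776% with metastasis in general and niche macrophages). An unadjusted p under 0.05 was held by 3 of the 16 in normal marrow (18.8% against 19.0% of all genes) and by 4 in each of the other 3 comparisons (25% against 8.6%, 5.12% and 12.7%). With metastasis it fell by 1.68 on the log2 scale in niche macrophages (edgeR adjusted p = 0.0438), while the fitted changes of Fos, Fosb, Jun, Egr1 and Dusp1 were above zero. That call was lost without normal library A or metastatic library 1 or 3 (edgeR adjusted p = 0.0526, 0.0633 and 0.180), under RLE scaling (0.0558), with library totals (0.0660) and with only the libraries compared (0.536), at log2 differences between -1.76 and -1.45. In general macrophages it was lost without any one library (edgeR adjusted p from 0.0582 to 0.332). Between populations it was lost without any one general library or niche library C in normal marrow (edgeR adjusted p from 0.0545 to 0.0612), and without general library 1 or niche library 1 or 3 in metastatic marrow (edgeR adjusted p from 0.0627 to 0.121). Library totals also lost it in general macrophages (0.0512) and in metastatic marrow (0.0639), as did only the libraries compared in the latter (0.0761).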

How the data were processed

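Per the labels' protocols, cells flushed out of leg bones were freed of red cells, stained and sorted alive, and total RNA depleted of ribosomal RNA was sequenced. The authors deposited 1 table of expected counts per gene symbol, with no normalization; 73.9% of its values were whole. The submitters' processing notes name Partek, STAR 2.7.3a, DESeq2 1.40.2, R 4.3.1 and the mm10 build, with no role; the counting program and strandedness are not given in the sources used here. Columns of niche macrophages from normal marrow carry numbers that do not match the titles, so they are called A, B and C. The titles call both sorts general macrophages, and groups here follow the antigens used for sorting.

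Expected counts were rounded, filtered with filterByExpr, scaled by TMM and tested in edgeR 4.0.16 under R 4.3.3 (quasi-likelihood F-test, 4 group means over 12 libraries). Benjamini-Hochberg adjustment ran over 12882 genes, with calls under 0.05. Groups are apart when their CPM do not overlap. Within-library ratios used 0.5 added counts and an exact permutation test. Alternatives were RLE scaling, library totals, no filter, 10 or more counts in all libraries, limma-voom (limma 3.58.1), DESeq2 1.42.0, only the libraries compared, a replicate block, leaving out each library, and a fit without the abundant haemoglobin, immunoglobulin, mitochondrial and small RNA genes. The procedure was tested on simulated data. Totals were 13687957 to 30332442 counts, or 12322383 to 27406299 after TMM scaling, which places 3 counts at 0.109 to 0.243 CPM; floors cover counting error only.

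The members, lists and tests were chosen with earlier results of these data known. Named were the 10 members, genes of the related lists that were called, otherwise the 2 with the smallest p per comparison, a selection of which is printed, and the 5 genes most like the members. Exon lengths and overlaps came from GENCODE M21 (18026 symbols matched), promoter windows from RefSeq.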

Additional observations from a re-analysis of the deposited data

How the results depend on the processing

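Genes called between populations were 318 in normal and 107 in metastatic marrow, and 2 (general) and 1 (niche) with metastasis. DESeq2 called 1825, 480, 141 and 954, and 410 for the difference of both changes, with 1 member called in normal marrow, 3 with metastasis in niche macrophages and 1 for the difference. Limma-voom called 186, 178, 23 and 11, with 0 members in metastatic marrow. Only the libraries compared gave 163 in normal marrow, 0 with metastasis in niche macrophages and 0 members in metastatic marrow; the difference of both changes was not run there. With metastasis, no filter gave 5 (general) and 3 (niche), a minimum of 10 counts 3 (niche, 8 members left in the fit), removal of abundant genes 2 (niche), RLE scaling 0 (niche) and library totals 0 in both. Members lower without overlap were 0 in metastatic and 3 in normal marrow under RLE scaling and library totals. Library totals moved the median of all genes by 0.25 between populations of metastatic marrow and by 0.23 with metastasis in niche macrophages, and limma-voom by -0.39 in normal marrow (from 0.19 to -0.20), by -0.19 in metastatic marrow (0.041 to -0.15), and with metastasis by 0.16 in general (-0.011 to 0.15) and 0.34 in niche macrophages (-0.17 to 0.17), turning the sign in each. Signs turned for Jun between populations of metastatic marrow (0.0143, library totals), Egr1 with metastasis in general macrophages (0.0578 with library totals, 0.00393 with no filter, 0.00656 with only the libraries compared), Ier2 there (0.0512 with library totals, 0.0434 with 10 counts) and, by more, Atf3 with metastasis in niche macrophages (from -0.24 to 0.80, limma-voom). The cause was not tested.

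Leaving out each library gave 176 to 402 genes in normal and 66 to 83 in metastatic marrow, 0 with metastasis in general macrophages, 0 to 66 in niche macrophages and 0 to 16 for the difference; where a group kept 2 libraries, fewer samples entered. Members called ranged from 0 to 2 in normal marrow, 0 to 1 in metastatic marrow, 0 to 2 with metastasis in niche macrophages and 0 to 1 for the difference; the upper values for the niche and normal comparisons came without niche library B. Members apart ranged from 0 to 1 (higher, normal marrow, where 12.4% to 16.4% of all genes were apart), 1 to 2 and 1 to 3 (higher and lower, metastatic marrow; 11% to 14% and 12.9% to 15.3% of all genes), 1 to 4 and 0 to 3 (higher and lower, metastasis in general macrophages; 11.6% to 13.4% and 7.87% to 11.1%) and 0 to 1 (lower, metastasis in niche macrophages; 10% to 13.7%). Members lower without overlap in normal marrow ranged from 4 to 6, where this held for 11.5% to 13.4% of all genes. Log2 differences that turned were Nr4a1 in normal marrow (-0.58 to 0.12), in metastatic marrow (-0.71 to 1.23), with metastasis in niche macrophages (-1.41 to 0.0212) and for the difference (-0.51 to 1.58). Jun (-0.36 to 0.0875) and Ier2 (-1.52 to 0.22) turned in metastatic marrow. Egr1 (-0.38 to 0.40), Ier2 (-0.93 to 0.28), Zfp36 (-0.0497 to 0.27) and Hspa1a (-1.19 to 6.31) turned with metastasis in general macrophages. Atf3 ranged from -2.07 to 4.85 with metastasis in niche macrophages and from -1.77 to 5.15 for the difference.

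Replicate numbers were shared by the groups other than normal niche macrophages. Deviations of same-numbered libraries correlated between -0.0036 and 0.033, and not every library correlated best with its own number. Within metastatic marrow, same numbers gave -0.0015, 0.022 and 0.020 for libraries 1 to 3, and unlike numbers -0.026 to 0.0076. Values this small cannot decide whether libraries of the same number were paired. With the replicate block, 117 genes were called between populations in metastatic marrow and 3 with metastasis in general macrophages, and Fosb was called (1.76, edgeR adjusted p = 0.0158). Comparisons with normal niche macrophages could not be fitted with the block.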
